A study of Mus musculus with 12 samples.

Results

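Transcripts of 10 mouse genes from 2 interferon-inducible families were followed through lipopolysaccharide (LPS) tolerance and recovery from it, 6 of the Schlafen family (Slfn1, Slfn2, Slfn3, Slfn4, Slfn5 and Slfn8) and 4 of the family of interferon-induced transmembrane proteins, IFITM (Ifitm1, Ifitm2, Ifitm3 and Ifitm6). They were taken by gene name from the arrays' annotation, each with its probe of the highest mean log2 signal, and all 10 were among the 20469 genes tested. The cells were bone marrow-derived macrophages of female C57BL/6 mice aged 6 to 8 weeks, differentiated for 7 days in L929-conditioned medium, in which marrow precursors grow into macrophages. RNA was read on 12 single-colour arrays, 3 for each of 4 groups. Recovered cells were exposed to LPS for 8 h, left without it for a time that the sample descriptions give as 88 h and the protocol as 2 to 4 days, and exposed once more for 4 h. Tolerant cells went through the same steps with 16 h between the exposures. Acute cells had a single exposure of 4 h, and untreated cells had none. Cells given the first exposure and the rest alone were not analysed here, nor were cells kept without LPS for the longer time.

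LPS is a cell wall component of Gram-negative bacteria. It is sensed by TLR4, whose adaptor TRIF leads to interferon-beta, and the secreted interferon acts back on the macrophage through its receptor and the factor complex ISGF3, which binds the interferon-stimulated response element (ISRE) of its target genes. Macrophages that met LPS a short time earlier answer a further dose with less of many inflammatory transcripts, the state called tolerance. Schlafen proteins are best known for holding lymphoid and myeloid cells in quiescence and, in some members, for acting on transfer RNA. Mouse Schlafens are grouped by length into short (Slfn1, Slfn2), intermediate (Slfn3, Slfn4) and long members (Slfn5, Slfn8), and only the long ones carry a helicase-like region. IFITM proteins are small membrane proteins that hinder the fusion of enveloped viruses with the cell's membranes.

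The 6 Schlafen probes lay on chromosome 11 between positions 82774907 and 83028490 of mm9, the build of the arrays' annotation, a stretch of 253.6 kb. The 4 IFITM probes lay on chromosome 7 between 148140881 and 148201773, a stretch of 60.9 kb. Exons and introns at the probes were not analysed here. The promoter windows below are RefSeq's on GRCm38.p6, a later build than that of the probes, and run from 250 bases before to 50 after each gene's start. All 10 genes had a window. Each was searched on both strands for the core of the ISRE (GAAA repeated with any 2 bases between the repeats), for the gamma-activated site, TTCNNNGAA, and for the NF-kB consensus. The ISRE core was in the windows of 4 of the 10 genes (Slfn5, Slfn8, Ifitm2 and Ifitm3), against 3.44% of 32851 windows of this length. The gamma-activated site was in 2 (Ifitm3 and Ifitm6), against 8.30% of windows, and the NF-kB consensus in 2 (Slfn1 and Ifitm3), against 8.46%. The sequences below are those of the windows with an ISRE core, because that motif is the one the interferon response is read through. Slfn4 is shown as well. Like Slfn2, Slfn3 and Ifitm1, it had none of the 3 motifs. Capitals mark the ISRE core on either strand. Ifitm3 held 2 matches just inside the transcript, at bases 3 to 12 and 20 to 29 counted from 1 at its start, so its first 30 bases are shown (chr7:141010715-141010744, minus strand). The gamma-activated site of Ifitm3, at bases 14 to 22, overlapped the second of them.
Ifitm3, first 30 bases: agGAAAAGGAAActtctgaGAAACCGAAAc

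For the other genes the 250 bases before the start are shown, with the match at positions -46 to -37 in Ifitm2 (chr7:140955962-140956211, minus strand), -155 to -146 in Slfn5 (chr11:82951852-82952101, plus strand) and -48 to -39 in Slfn8 (chr11:83020811-83021060, minus strand). Slfn8 had a second annotated start, from which the same match lay at -136 to -127. The Slfn4 window was at chr11:83174936-83175185 on the plus strand. A match is a run of letters and not a measured binding site.
Ifitm2: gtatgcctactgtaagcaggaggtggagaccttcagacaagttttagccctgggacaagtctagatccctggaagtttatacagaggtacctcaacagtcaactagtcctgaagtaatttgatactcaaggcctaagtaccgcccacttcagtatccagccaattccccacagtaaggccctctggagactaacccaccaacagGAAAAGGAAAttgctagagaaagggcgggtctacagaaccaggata
Slfn5: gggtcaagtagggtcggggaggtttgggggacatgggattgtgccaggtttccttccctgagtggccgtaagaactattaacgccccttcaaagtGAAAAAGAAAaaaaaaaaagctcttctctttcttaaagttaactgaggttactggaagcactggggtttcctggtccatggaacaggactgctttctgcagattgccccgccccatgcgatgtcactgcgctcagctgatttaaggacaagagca
Slfn8: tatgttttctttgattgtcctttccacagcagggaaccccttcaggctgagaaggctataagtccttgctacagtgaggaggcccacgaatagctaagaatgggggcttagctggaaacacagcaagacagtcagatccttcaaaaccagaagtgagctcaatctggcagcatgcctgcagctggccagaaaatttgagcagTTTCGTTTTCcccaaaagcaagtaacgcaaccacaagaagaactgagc
Slfn4: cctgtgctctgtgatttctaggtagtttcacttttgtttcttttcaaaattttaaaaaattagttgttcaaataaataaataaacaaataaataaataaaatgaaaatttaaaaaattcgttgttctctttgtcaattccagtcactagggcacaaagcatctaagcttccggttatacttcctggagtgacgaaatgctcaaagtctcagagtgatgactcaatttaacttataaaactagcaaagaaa

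Levels are given as log2 of the scanner's background-subtracted signal after each array was brought to a common 75th percentile, and a difference of 1 is a doubling. Changes are differences of group means on this scale, each ± its standard error in the limma model (3 arrays in each group). A gene counts as called where its p, adjusted by Benjamini-Hochberg over all 20469 genes, was under 0.05. Between 47.8% and 55.0% of an array's spots were well above background, and arrays of the same group correlated at r between 0.980 and 0.994 across genes. Levels of different probes are not compared, because probes differ in how strongly they bind. The arrays lay on 3 slides, and each slide held at least 3 of the groups. Slide and replicate number largely coincided, and arrays that shared a number deviated together, so a value with the replicate number as a block is given wherever it changed a call. In RNA from whole cultures, fewer cells with a transcript and less of it per cell cannot be told apart. All 8 macrophage markers examined, among them Adgre1, Csf1r and Cd68, were well above background on every array. Their summed signal was 790204 to 927987 in recovered and 577134 to 619802 in untreated cells. It was 639696 to 750269 in tolerant and 635001 to 718569 in acute cells. Csf1r, Cd68, Fcgr1 and Cd14 were called higher in recovered than in untreated cells, where 18.6% of all genes were. The other macrophage markers were not called in that comparison.

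Every Schlafen gene was higher after LPS than without it, in each of the LPS groups. All 6 were called higher in recovered cells, where 18.6% of all genes were, in tolerant cells, where 11.3% were, and in acute cells, where 14.3% were. Changes ran between 2.63 and 5.76 in recovered cells, 1.69 and 4.47 in tolerant cells, and 2.69 and 5.36 in acute cells, all against the same untreated arrays. The upper ends are those of Slfn1, whose probe was well above background on 1 of the 3 untreated arrays, so that their size is imprecise, and the next highest were those of Slfn4 (4.96, 3.69 and 5.29). The Schlafen medians were 4.10, 2.57 and 3.96, while the medians over all genes were 0.07, -0.02 and 0.02.

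Among the short members, Slfn1, whose forced expression halts the growth of mouse T cells, had a log2 signal of 9.45, 9.19 and 10.28 in recovered cells, 7.96, 8.06 and 9.03 in tolerant cells, 8.99, 8.76 and 9.98 in acute cells, and 3.48, 3.64 and 4.53 in untreated cells. Untreated cells were lowest without overlap, and only 1 of their 3 arrays was well above background. Tolerant arrays lay below the recovered arrays and overlapped the acute arrays. The third replicate was the highest in every group, and that shared shift widened the spread within groups. Slfn1 was 5.76 ± 0.43 higher in recovered, 4.47 ± 0.43 higher in tolerant and 5.36 ± 0.43 higher in acute cells than in untreated cells (adjusted p = 1.64e-06, 2.99e-05 and 3.07e-06). Its order of means was recovered, acute, tolerant and untreated.

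Slfn2 is the member whose loss in mice takes T cells and monocytes out of quiescence. It had 15.90, 15.80 and 16.14 in recovered cells, 15.00, 14.99 and 15.24 in tolerant cells, 16.05, 15.95 and 16.02 in acute cells, and 13.22, 13.29 and 13.44 in untreated cells. Tolerant arrays lay between the untreated arrays and those of the other LPS groups with no overlap, while recovered and acute arrays overlapped. The gains over untreated cells were 2.63 ± 0.14 in recovered, 1.76 ± 0.14 in tolerant and 2.69 ± 0.14 in acute cells (adjusted p = 1.29e-07, 7.44e-06 and 1.17e-07), equal to 6.20-fold, 3.39-fold and 6.44-fold.

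Of the intermediate members, Slfn3, studied in rodents for its part in the differentiation of gut epithelium, had 10.31, 10.01 and 10.35 in recovered cells, 8.98, 8.44 and 8.88 in tolerant cells, 9.94, 9.88 and 10.19 in acute cells, and 5.84, 5.91 and 6.36 in untreated cells. Recovered and acute arrays overlapped, and the tolerant arrays lay below both and above the untreated arrays. The changes against untreated cells were 4.19 ± 0.20, 2.73 ± 0.20 and 3.96 ± 0.20 in recovered, tolerant and acute cells (adjusted p = 4.92e-08, 3.47e-06 and 7.76e-08).

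Slfn4 is expressed by mouse monocytes and macrophages and falls as they mature. It had 10.09, 9.12 and 9.62 in recovered cells, 8.66, 8.12 and 8.21 in tolerant cells, 9.92, 9.87 and 10.04 in acute cells, and 4.70, 5.0 and 4.24 in untreated cells. Recovered arrays spread around the narrow acute range, with 1 array above it and 2 below, and tolerant arrays lay below every recovered array. The changes against untreated cells were 4.96 ± 0.26, 3.69 ± 0.26 and 5.29 ± 0.26 in recovered, tolerant and acute cells (adjusted p = 1.19e-07, 3.06e-06 and 7.61e-08), or 31.1-fold, 12.9-fold and 39.2-fold.

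Among the long members, Slfn5, a nuclear protein described as a repressor of transcription in human cells, had 10.64, 9.76 and 10.88 in recovered cells, 8.62, 7.96 and 9.10 in tolerant cells, 9.84, 10.08 and 11.00 in acute cells, and 6.73, 6.28 and 7.62 in untreated cells. The groups kept the same arrangement as for Slfn3, with wider spread. Slfn5 changed by 3.55 ± 0.44, 1.69 ± 0.44 and 3.43 ± 0.44 in recovered, tolerant and acute against untreated cells (adjusted p = 8.24e-05, 0.0193 and 0.000122). The call in tolerant cells was lost without untreated replicate 1 (adjusted p = 0.0597) or 2 (0.0834) and without tolerant replicate 1 (0.0575) or 3 (0.0705). With the replicate block its adjusted p was 0.00019.

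Slfn8, the other long member, had 15.58, 15.42 and 14.99 in recovered cells, 13.82, 13.79 and 13.60 in tolerant cells, 15.44, 15.43 and 14.98 in acute cells, and 11.34, 11.39 and 11.25 in untreated cells. Recovered and acute arrays nearly coincided replicate by replicate, and the 3 levels that the 4 groups formed did not overlap. The changes against untreated cells were 4.00 ± 0.18, 2.41 ± 0.18 and 3.96 ± 0.18 in recovered, tolerant and acute cells (adjusted p = 4.21e-08, 5.14e-06 and 4.7e-08). A second Slfn8 probe gave 3.92 ± 0.38, 2.44 ± 0.38 and 3.93 ± 0.38.

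**Figure D1:**
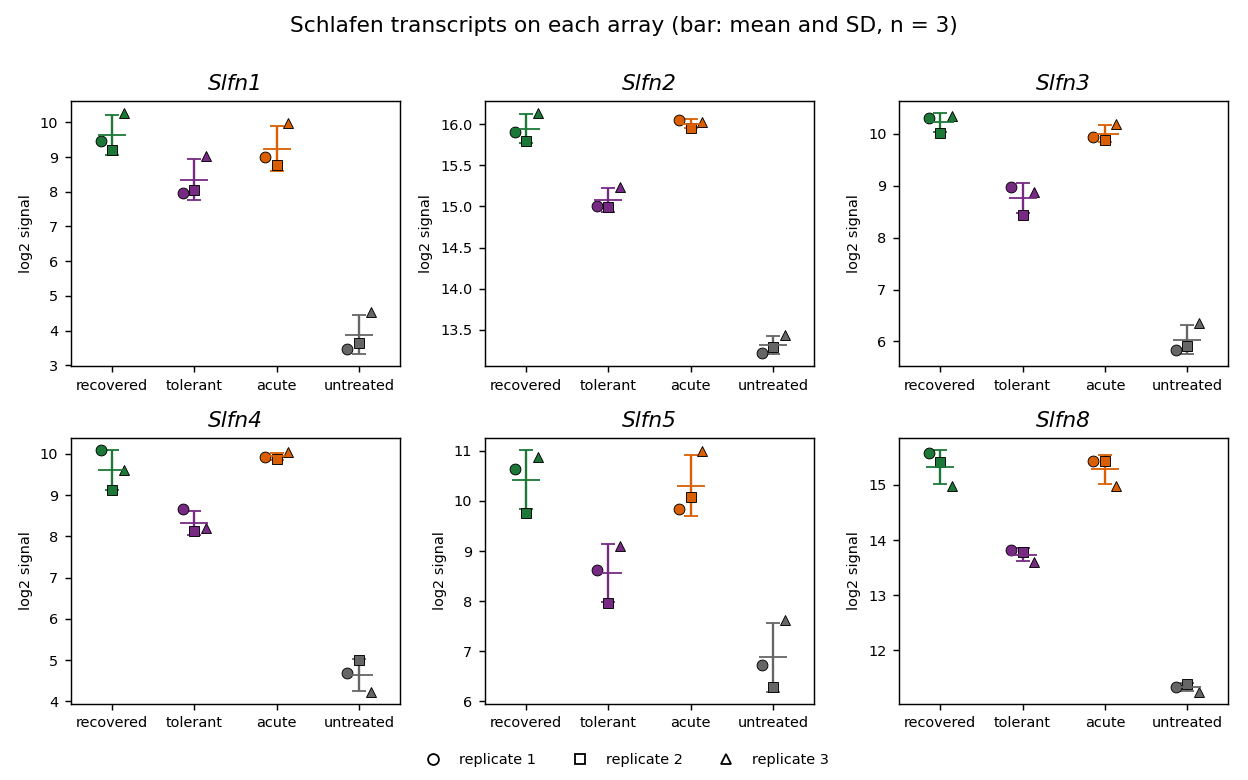
Log2 signal of the 6 Schlafen genes on each of the 12 arrays, by group, with a marker shape for each replicate number and a bar for the group mean ± SD (n = 3). The y axes differ between panels. In each panel the 3 untreated arrays are lowest, and tolerant arrays lie below the recovered arrays.

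The IFITM genes moved less and not as a block. In recovered cells 2 of 4 were called higher than in untreated cells (Ifitm2 and Ifitm3), in tolerant cells 2 (Ifitm1 and Ifitm3) and in acute cells 1 (Ifitm3). The shares of all genes called higher were 18.6%, 11.3% and 14.3% in these comparisons. None of the 4 was called lower against untreated cells. Their median changes were 0.69, 0.82 and 0.32 in recovered, tolerant and acute cells. With the Schlafen genes, 8 of 10 genes were called higher in recovered, 8 of 10 in tolerant and 7 of 10 in acute cells against untreated cells. The arrays of both groups did not overlap for 8 of 10 genes in recovered cells, where 47.7% of all genes did not, for 10 of 10 in tolerant cells, where 34.6% did not, and for 8 of 10 in acute cells, where 38.8% did not.

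Ifitm1, found mainly at the cell surface, had 8.45, 8.92 and 8.72 in recovered cells, 9.49, 9.91 and 8.64 in tolerant cells, 8.49, 8.37 and 8.26 in acute cells, and 7.50, 8.11 and 8.61 in untreated cells. It was the sole gene of the 10 whose mean was highest in tolerant cells, and tolerant replicate 3 lay apart from the other tolerant arrays, close to untreated replicate 3. Against untreated cells it changed by 0.62 ± 0.33 in recovered, 1.28 ± 0.33 in tolerant and 0.30 ± 0.33 in acute cells (adjusted p = 0.167, 0.0177 and 0.576). The difference of tolerant from untreated arrays was 2.00, 1.80 and 0.04 within the 3 slides. The call in tolerant cells was lost without tolerant replicate 1 (adjusted p = 0.0615), tolerant replicate 2 (0.0769) or untreated replicate 1 (0.0667). The probe shared 54 of its 60 bases with the probe of Gm7676, a locus on chromosome 8, whose values followed it within a root mean square distance of 0.116, so the signals of the 2 loci may not be separate.

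Ifitm2, a protein of late endosomes, had 14.72, 14.74 and 14.97 in recovered cells, 14.28, 14.53 and 14.41 in tolerant cells, 14.40, 14.31 and 14.44 in acute cells, and 13.88, 14.00 and 14.26 in untreated cells. Recovered arrays were above all others, untreated arrays were below all others, and tolerant and acute arrays overlapped. The change against untreated cells was 0.77 ± 0.14 in recovered cells (adjusted p = 0.00158), which was not called on the authors' matrix values (0.31 ± 0.13, 0.0641) or after quantile normalization (0.43 ± 0.18, 0.0766). It was 0.36 ± 0.14 in tolerant and 0.34 ± 0.14 in acute cells (adjusted p = 0.108 and 0.106, and 0.0273 and 0.0303 with the replicate block). In acute cells the sign turned on the authors' matrix values and after quantile normalization. The probe shared 36 of 60 bases with a probe on the X chromosome whose values followed it at a distance of 0.0357, so this signal too may hold another locus.

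Ifitm3 is the member that restricts influenza virus in mice, from the membranes of late endosomes. It had 16.46, 16.10 and 16.24 in recovered cells, 16.00, 16.16 and 16.05 in tolerant cells, 16.17, 15.79 and 15.87 in acute cells, and 14.79, 14.58 and 14.84 in untreated cells. The 3 LPS groups overlapped each other and stood clear of untreated cells. The gains were 1.53 ± 0.15 in recovered, 1.34 ± 0.15 in tolerant and 1.21 ± 0.15 in acute cells (adjusted p = 1.78e-05, 0.000117 and 0.000116), or 2.90-fold, 2.52-fold and 2.31-fold. Within slides they stayed between 1.03 and 1.71.

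Ifitm6, a less studied mouse member found in macrophages, had 10.37, 10.12 and 10.46 in recovered cells, 9.36, 9.53 and 9.36 in tolerant cells, 11.13, 9.91 and 10.70 in acute cells, and 10.96, 9.61 and 10.47 in untreated cells. Tolerant arrays were the lowest, with the closest array of another group being untreated replicate 2, and the other 3 groups overlapped. Against untreated cells it changed by -0.03 ± 0.34 in recovered, -0.93 ± 0.34 in tolerant and 0.23 ± 0.34 in acute cells (adjusted p = 0.96, 0.0855 and 0.703). In tolerant cells the adjusted p was 0.0217 with the replicate block and 0.0327 on the authors' matrix values (-0.86 ± 0.28), and the differences within slides were -1.60, -0.08 and -1.10.

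**Figure D2:**
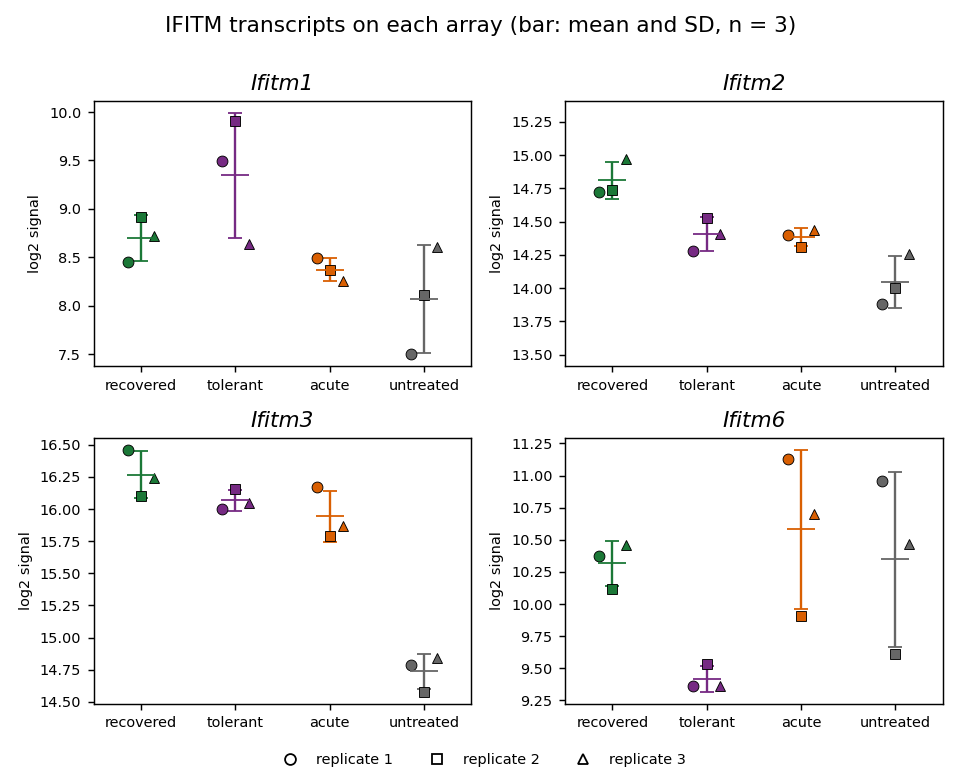
Log2 signal of the 4 IFITM genes on each of the 12 arrays, by group, with a marker shape for each replicate number and a bar for the group mean ± SD (n = 3). The y axes differ between panels. Ifitm3 has its untreated arrays apart from all others, Ifitm1 has its highest mean and Ifitm6 its lowest in tolerant cells.

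Tolerance is defined by the response to the second exposure, so tolerant cells were set against acute cells, whose last exposure was as long. Of the Schlafen genes 5 of 6 were called lower in tolerant than in acute cells, and of the IFITM genes 1 of 4 (Ifitm6), together 6 of 10, where 10.7% of all genes were called lower. None of the 10 was called higher, where 2463 of the 20469 genes were. On the authors' matrix values 3 of the 10 were called lower (Slfn2, Slfn8 and Ifitm6) and 2 higher (Ifitm1 and Ifitm3). On those values 7676 of the 20469 genes were called in either direction. Arrays did not overlap for 7 of 10 genes, against 38.4% of all genes. The Schlafen median was -1.39 and the IFITM median 0.08, beside -0.05 over all genes.

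The changes of tolerant against acute cells were -0.93 ± 0.14 for Slfn2, -1.24 ± 0.20 for Slfn3, -1.61 ± 0.26 for Slfn4, -1.75 ± 0.44 for Slfn5 and -1.55 ± 0.18 for Slfn8 (adjusted p = 0.00101, 0.00131, 0.00149, 0.0154 and 0.000232). In fold terms they were 1.90-fold, 2.35-fold, 3.05-fold, 3.36-fold and 2.92-fold lower. Slfn1 differed by -0.89 ± 0.43, which did not pass (adjusted p = 0.16), and by -0.89 ± 0.11 with the replicate block, which did (0.00032). All 6 were lower in tolerant cells in every pair of arrays with the same replicate number. The call of Slfn5 was lost without tolerant replicate 2 (adjusted p = 0.0656). On the authors' matrix values, Slfn3, Slfn4 and Slfn5 kept the direction but not the call (-1.11, -1.50 and -1.54, adjusted p = 0.127, 0.17 and 0.0541).

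Ifitm6 fell by 1.16 ± 0.34 on the log2 scale in tolerant against acute cells (adjusted p = 0.0328), and its differences within the 3 slides were -1.77, -0.38 and -1.34. That call was lost without acute replicate 1 (adjusted p = 0.112) or 3 (0.0751), without tolerant replicate 1 (0.0814), 2 (0.0689) or 3 (0.0792), with dim probes kept in (0.0659) and with the arrays of the second scan day left out (0.168), and it stood at 0.00691 with the replicate block. Ifitm1 differed by 0.97 ± 0.33, in the other direction and short of the threshold (adjusted p = 0.0544). It passed with the replicate block (0.0348), after quantile normalization (0.0494), with normexp background correction (0.0373) and on the authors' matrix values (0.83 ± 0.25, 0.0217). Ifitm2 and Ifitm3 differed by 0.02 ± 0.14 and 0.13 ± 0.15 (adjusted p = 0.929 and 0.59), with 95% intervals of -0.29 to 0.34 and -0.21 to 0.47. On the authors' matrix values the Ifitm3 difference was 0.35 ± 0.12 and was called (adjusted p = 0.0435).

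Recovered cells were set against tolerant cells, which had the shorter rest. Both groups were read only after the second exposure. A changed response, transcript left from the first exposure and the longer time in culture therefore cannot be told apart. Recovered cells had 5 of 6 Schlafen genes called higher and 0 of 4 IFITM genes, together 5 of 10, where 11.2% of all genes were called higher. With the replicate block the count was 8 of 10, where 25.4% of all genes were, adding Slfn1, Ifitm2 and Ifitm6. Arrays did not overlap for 8 of 10 genes, against 44.0% of all genes. The Schlafen median was 1.37 and the IFITM median 0.30, beside 0.09 over all genes.

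The gains of recovered over tolerant cells were 0.87 ± 0.14 for Slfn2, 1.46 ± 0.20 for Slfn3, 1.27 ± 0.26 for Slfn4, 1.87 ± 0.44 for Slfn5 and 1.59 ± 0.18 for Slfn8 (adjusted p = 0.0019, 0.000693, 0.00674, 0.0131 and 0.000293). Slfn1 differed by 1.29 ± 0.43 (adjusted p = 0.0543), and by 1.29 ± 0.11 with the replicate block (6.63e-05). The differences between arrays of one replicate number were alike, at 1.49, 1.12 and 1.26 for Slfn1 and 2.02, 1.80 and 1.79 for Slfn5. The Slfn5 call was lost without recovered replicate 3 (adjusted p = 0.0522) or tolerant replicate 2 (0.0536), and on the authors' matrix values Slfn3 and Slfn4 were not called (1.35 and 1.19, adjusted p = 0.07 and 0.269).

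For the IFITM genes the same comparison gave 0.90 ± 0.34 for Ifitm6, 0.40 ± 0.14 for Ifitm2, 0.20 ± 0.15 for Ifitm3 and -0.65 ± 0.33 for Ifitm1 (adjusted p = 0.086, 0.0692, 0.375 and 0.177). With the replicate block Ifitm6 and Ifitm2 passed (0.0222 and 0.0158), as Ifitm6 did on the authors' matrix values (0.77 ± 0.28, 0.0481), and all 3 differences within replicate numbers were positive for both. Without tolerant replicate 3 the Ifitm1 difference was -1.0 and passed (adjusted p = 0.0417).

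**Figure D3:**
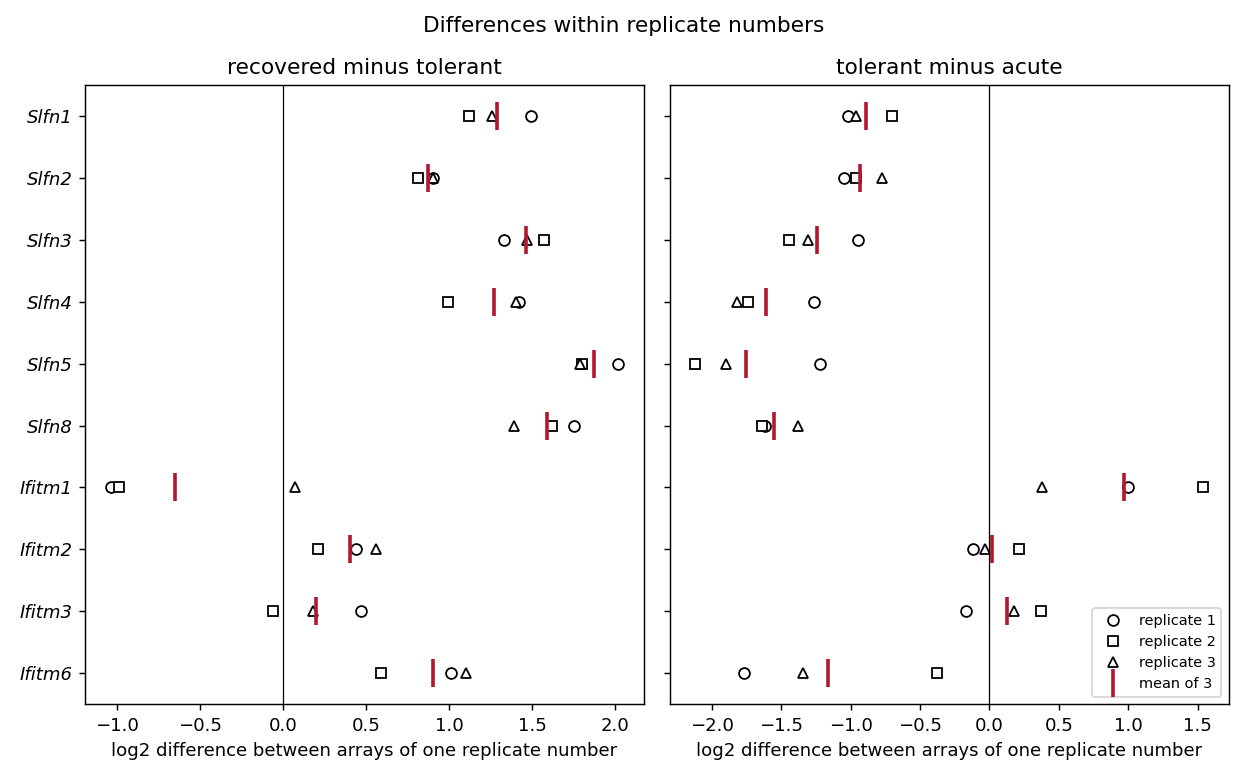
Log2 differences between arrays of the same replicate number for recovered minus tolerant cells (left) and tolerant minus acute cells (right), for each of the 10 genes, with the mean of 3 as a red bar. For the 6 Schlafen genes all 3 differences are above 0 on the left and below 0 on the right, while those of Ifitm3 lie on both sides of 0 in both panels.

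Recovered and acute cells were then set against each other. None of the 10 genes was called in limma, where 2.05% of all genes were called in either direction, and 1 of the 10, Ifitm2, had an unadjusted p under 0.05. Arrays did not overlap for 1 of 10 genes, Ifitm2, against 19.7% of all genes. Ifitm2 was 0.43 ± 0.14 apart (adjusted p = 0.187), and was called higher with the replicate block (0.0389), in which 6.07% of all genes were. The 95% intervals of the difference were -0.37 to 0.25 for Slfn2, -0.36 to 0.45 for Slfn8 and -0.21 to 0.66 for Slfn3. They were wider for Slfn4 (-0.91 to 0.24), Slfn5 (-0.85 to 1.09) and Slfn1 (-0.54 to 1.34). Differences inside these intervals could not be seen in this fit, which had 3 arrays a group and no block. With the replicate block the standard error fell from 0.43 to 0.11 for Slfn1 and from 0.44 to 0.19 for Slfn5, but only from 0.26 to 0.24 for Slfn4. Slfn1 was then 0.40 ± 0.11 higher in recovered cells and not called (adjusted p = 0.0532), with 0.47, 0.42 and 0.30 within replicate numbers. Without the block the intervals for Ifitm1, Ifitm3 and Ifitm6 were -0.40 to 1.04, -0.01 to 0.66 and -1.02 to 0.50.

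**Figure D4:**
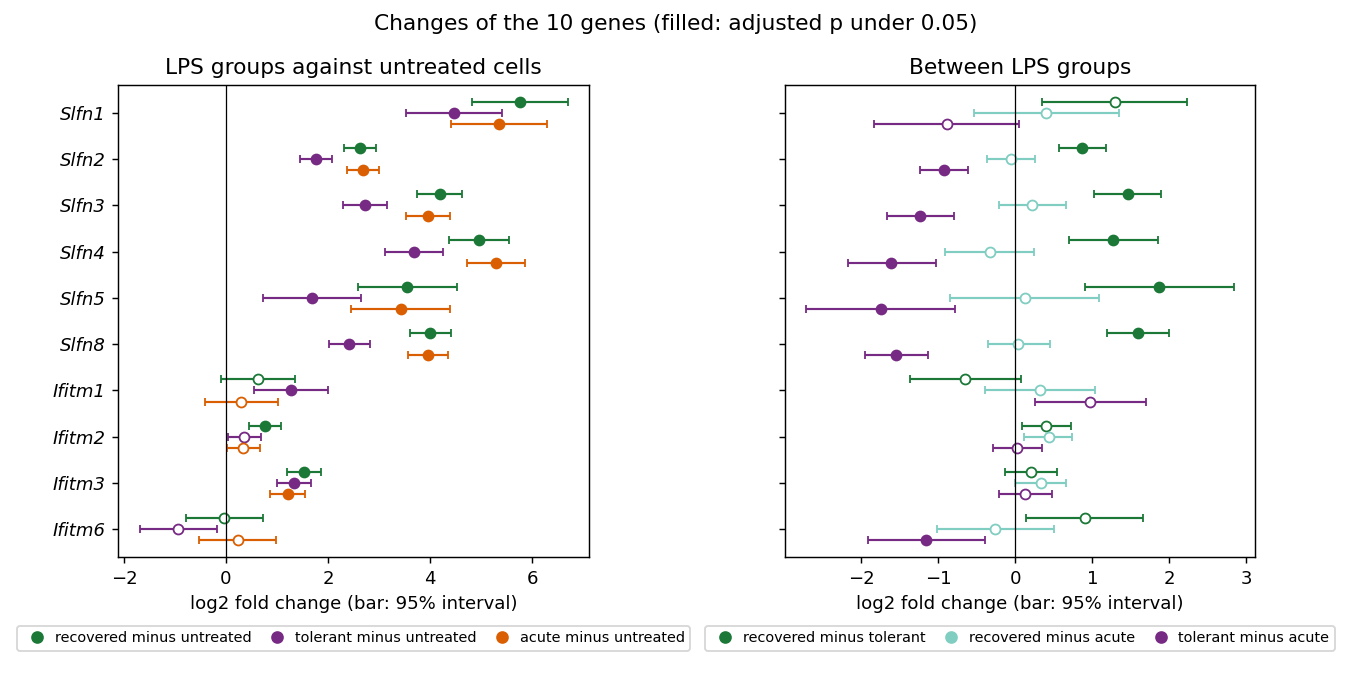
Log2 fold change and 95% interval of each of the 10 genes, for the 3 LPS groups against untreated cells (left) and for the LPS groups against each other (right). Filled points had an adjusted p under 0.05. All Schlafen points on the left are filled and lie between 1.69 and 5.76, and no point of recovered minus acute cells is filled.

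Other genes of both families were read by the same rule. Slfn9, a long member, had mean log2 signals of 12.07 ± 0.12 in recovered, 11.02 ± 0.20 in tolerant, 12.26 ± 0.20 in acute and 10.27 ± 0.20 in untreated cells (SD, n = 3 each). Its changes against untreated cells were 1.80 ± 0.17, 0.75 ± 0.17 and 1.99 ± 0.17 in recovered, tolerant and acute cells, and a second Slfn9 probe gave 2.93, 1.19 and 3.24. The pseudogene Slfn10-ps had 14.37 ± 0.13 in recovered, 13.08 ± 0.10 in tolerant, 14.27 ± 0.18 in acute and 10.92 ± 0.19 in untreated cells (SD, n = 3 each). Both were called lower in tolerant than in acute cells (-1.24 ± 0.17 and -1.19 ± 0.15, adjusted p = 0.000495 and 0.000361) and higher in recovered than in tolerant cells (1.05 ± 0.17 and 1.29 ± 0.15, adjusted p = 0.00177 and 0.000335). The Slfn8 probe shared a run of 19 bases with a Slfn9 probe. Slfn14 and Slfnl1 did not pass the filter on dim probes.

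Ifitm7, which lies on chromosome 16 away from the cluster, had 2 probes that disagreed. The brighter gave 2.88 ± 0.31, 2.09 ± 0.31 and 1.48 ± 0.31 in recovered, tolerant and acute cells against untreated cells, and 1.40 ± 0.31 in recovered against acute cells (adjusted p = 0.047). The other gave 0.53 ± 0.20, 0.65 ± 0.20 and 0.52 ± 0.20 (adjusted p = 0.0618, 0.0412 and 0.0737), so the size of the Ifitm7 change is not settled here. Ifitm10 was well above background on the tolerant arrays alone. It passed the filter on dim probes through that group only, which favours a higher value there. Its adjusted p-values do not allow for this selection. Ifitm10 was at least 2.02-fold higher in tolerant than in untreated cells and at least 1.76-fold higher than in acute cells (adjusted p = 0.000963 and 0.00218). It was at least 1.49-fold lower in recovered than in tolerant cells (adjusted p = 0.00257). For such a bound the dim arrays were given their own signal or, where it was higher, the lowest signal that counted as well above background. Ifitm5, the bone-specific member, was well above background on all 3 acute arrays, on 2 untreated, 1 tolerant and 0 recovered arrays, and was not called in any comparison.

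Neighbours on the chromosome were taken within 200000 bases of the outermost probes. Around the Schlafen genes 17 other genes were tested, and 4 were called higher and 3 lower in recovered, 4 and 0 in tolerant, and 4 and 3 in acute against untreated cells. Over all genes 18.6% were called higher and 16.8% lower in recovered, 11.3% and 8.64% in tolerant, and 14.3% and 15.0% in acute cells, and no enrichment is read from these few neighbours. The genes inside the cluster accounted for 3 of the 4, Slfn9, Slfn10-ps and LOC640793, which the annotation calls similar to schlafen 9. LOC640793 changed by 3.77 ± 0.26, 2.09 ± 0.26 and 3.71 ± 0.26 in recovered, tolerant and acute cells. The fourth was Rffl, a ubiquitin ligase gene 155.7 kb before the first Schlafen probe, at 1.59 ± 0.32, 1.87 ± 0.32 and 1.18 ± 0.32. Rad51d, a DNA repair gene 82.7 kb before it, went the other way in recovered and acute cells (-0.50 ± 0.17 and -0.71 ± 0.17, adjusted p = 0.0433 and 0.00843).

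Of 20 genes tested around the IFITM cluster, 2 were called higher and 3 lower in recovered, 1 and 2 in tolerant, and 2 and 2 in acute against untreated cells. Beside the shares of all genes given for the Schlafen neighbours, no enrichment is read from these counts. LOC631287, annotated as similar to IFITM2 and 1.0 kb from the Ifitm2 probe, changed by 2.25 ± 0.51, 1.83 ± 0.51 and 2.10 ± 0.51 in recovered, tolerant and acute cells (adjusted p = 0.00502, 0.0268 and 0.00875). Sirt3, the mitochondrial deacetylase gene 91.3 kb before the cluster, changed by -1.54 ± 0.16, -0.60 ± 0.16 and -1.41 ± 0.16 (adjusted p = 2.84e-05, 0.0245 and 6.01e-05). No neighbour of either cluster was called between recovered and acute cells.

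**Figure D5:**
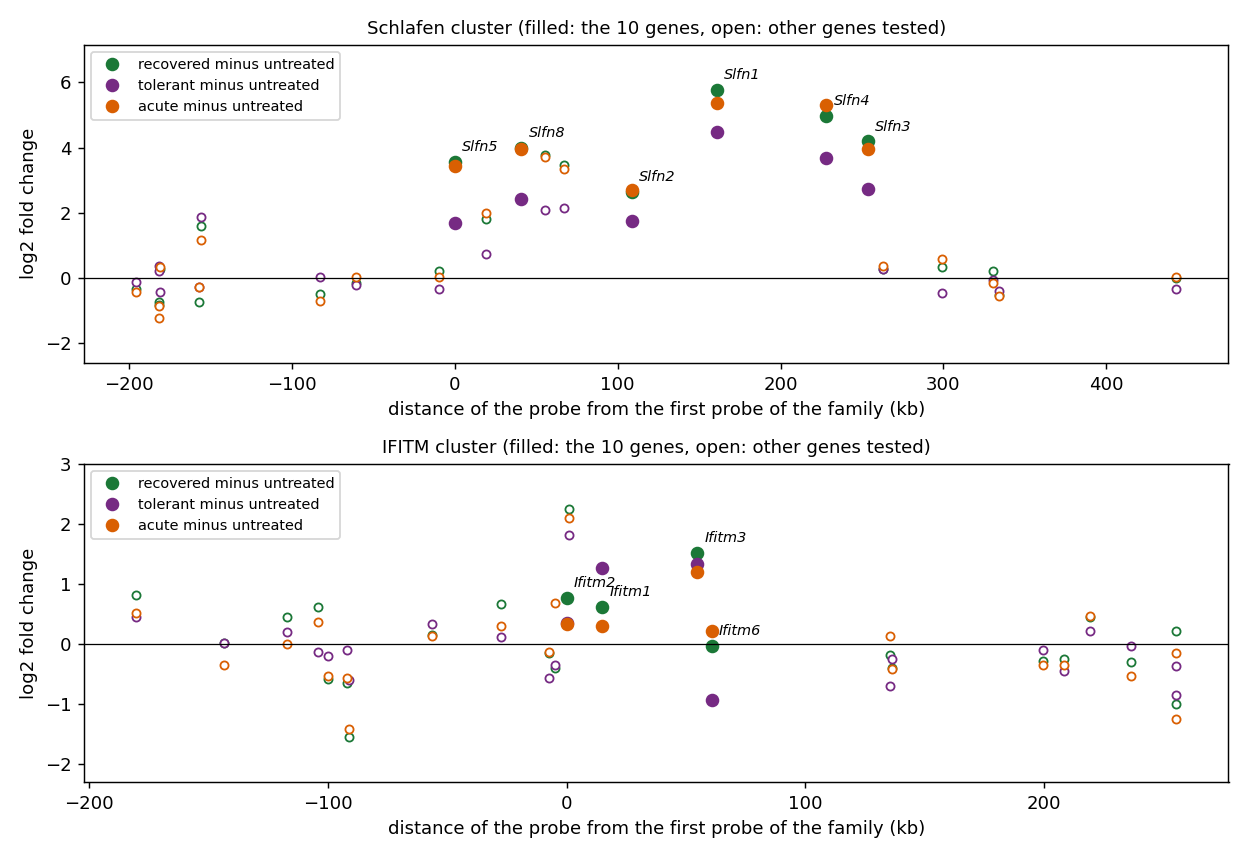
Log2 fold change against untreated cells of the genes on the arrays around the Schlafen cluster (top) and the IFITM cluster (bottom), by distance of the probe in kb from the first probe of the family. Filled points are the 10 genes and open points the other genes tested. Filled Schlafen points and the open points among them lie above 0 in all 3 LPS groups, and most points outside either cluster lie between -1 and 1.

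Interferon signalling was read from a list of 16 genes, 15 of which were tested. Whether these genes act upstream of the 2 families was not tested. Against untreated cells 12 were called higher and 0 lower in recovered, 12 and 0 in tolerant, and 11 and 1 in acute cells, with medians of 1.89, 1.34 and 1.86. Of all genes 18.6%, 11.3% and 14.3% were called higher in these comparisons. Ifnb1, the interferon-beta gene, was not well above background in untreated cells, and was at least 296-fold higher in recovered, at least 28.5-fold higher in tolerant and at least 965-fold higher in acute cells (adjusted p = 4.66e-07, 2.76e-05 and 1.43e-07). Irf1, an interferon-regulatory factor, changed by 4.15 ± 0.14, 2.07 ± 0.14 and 4.19 ± 0.14. Irf7, the factor that amplifies interferon production, changed by 4.41 ± 0.24, 4.49 ± 0.24 and 4.21 ± 0.24. In tolerant against acute cells 2 were called higher and 8 lower (median -0.52), with Irf1 at -2.13 ± 0.14 and Ifnb1 at -5.08 ± 0.63. Of the 20469 genes, 2463 were called higher and 10.7% lower there. In recovered against tolerant cells 7 were called higher and 1 lower (median 0.55), where 11.2% of all genes were called higher. In recovered against acute cells 1 was called higher and 1 lower (median -0.05), where 2.05% of all genes were called in either direction.

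Antiviral effectors of the interferon response, 21 genes, were called higher against untreated cells in 21 cases in recovered, 20 in tolerant and 21 in acute cells, with medians of 3.46, 2.42 and 3.37. The shares of all genes called higher were 18.6%, 11.3% and 14.3%. Rsad2, which encodes viperin, changed by 7.98 ± 0.23, 5.48 ± 0.23 and 8.01 ± 0.23, and Mx1, a dynamin-like GTPase, by 7.85 ± 0.22, 5.82 ± 0.22 and 7.79 ± 0.22. In tolerant against acute cells 15 were called lower and 0 higher (median -1.08, Rsad2 at -2.53 ± 0.23), where 10.7% of all genes were called lower. In recovered against tolerant cells 16 were called higher and 0 lower (median 1.04, Rsad2 at 2.51 ± 0.23), where 11.2% of all genes were called higher. None was called between recovered and acute cells (median -0.02), where 2.05% of all genes were called in either direction. With a share so low, no call among 21 genes carries little weight.

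Genes whose products modify or bind IFITM proteins, 8 in all, showed few calls. Setd7, the methyltransferase that acts on a lysine of human IFITM3, changed by -1.31 ± 0.18 in recovered, -0.92 ± 0.18 in tolerant and -0.88 ± 0.18 in acute against untreated cells (adjusted p = 0.000155, 0.00357 and 0.00271). Nedd4, a ubiquitin ligase of IFITM3, was not well above background in tolerant cells, and was at least 5.95-fold lower there than in untreated and at least 3.67-fold lower than in acute cells (adjusted p = 0.00224 and 0.00872). Nedd4 was also called lower in recovered than in untreated cells (adjusted p = 0.00354), but with 1 of 3 recovered arrays well above background the size of that change is not given. Abhd16a, a depalmitoylase, was higher in recovered and acute than in untreated cells (0.89 ± 0.12 and 0.66 ± 0.12, adjusted p = 0.000199 and 0.00202). In all, 1 gene was called higher and 2 lower in recovered, 0 and 2 in tolerant, and 1 and 1 in acute against untreated cells. The shares of all genes were 18.6% and 16.8%, 11.3% and 8.64%, and 14.3% and 15.0%, and no enrichment is read from so few genes. Between LPS groups, 0 were called higher and 2 lower in tolerant against acute, 1 and 0 in recovered against tolerant, and none in recovered against acute cells. The median changes against untreated cells were -0.30, -0.26 and -0.11.

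Because Schlafens are known for quiescence, 16 genes of cell cycle entry and exit were read as well. Against untreated cells 6 were called higher and 5 lower in recovered, 2 and 1 in tolerant, and 6 and 2 in acute cells (medians -0.29, -0.37 and -0.03). Shares of all genes called higher and lower were 18.6% and 16.8%, 11.3% and 8.64%, and 14.3% and 15.0%, in that order. No enrichment is read from these counts. Ccnd2, a D-type cyclin, changed by 3.51 ± 0.30, 1.40 ± 0.30 and 4.21 ± 0.30 in recovered, tolerant and acute cells (adjusted p = 4.91e-06, 0.00641 and 1.18e-06). Cdkn1a, which encodes the inhibitor p21, changed by 2.68 ± 0.20, 1.67 ± 0.20 and 2.70 ± 0.20 (adjusted p = 2.05e-06, 0.000187 and 1.97e-06). Between LPS groups, 5 were called lower and 0 higher in tolerant against acute cells (median -0.26), where 10.7% of all genes were called lower. In recovered against tolerant cells 5 were called higher and 0 lower (median 0.08), where 11.2% of all genes were called higher. In recovered against acute cells Ccnd1 alone was called, at 1.25 ± 0.23 (adjusted p = 0.0316).

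The genes on the arrays whose values were nearest to each member after its own mean was taken away were found by root mean square distance over the 12 arrays, a description with no test. For Slfn2 they were Trim30d, Parp12 and Oas2 (0.159, 0.162 and 0.164 log2 units). For Slfn8 they were LOC631406, annotated as similar to schlafen 8 (0.0971), the exchange factor gene Arhgef3 (0.162) and the interferon-inducible GTPase gene Irgm1 (0.22). For Slfn4 they were the chemokine gene Cxcl9, Herc6 and Phf11b (0.28, 0.312 and 0.336), and for Slfn3 an unnamed locus on chromosome 5, Calcrl and Gm9099 (0.211, 0.218 and 0.271). Slfn1 was nearest to LOC100044430, annotated as similar to an interferon-activated gene, Eci2 and Apol9b (0.287, 0.289 and 0.398), and LOC640793 was the third nearest to Slfn5 (0.297). For Ifitm3 they were the immunoproteasome gene Psmb8, Stx6 and Dnaja1 (0.15, 0.16 and 0.16). Among the 10 genes, Slfn3 and Slfn8 were nearest to each other (0.339), with 22 other genes on the arrays nearer to Slfn3 and 33 nearer to Slfn8. Ifitm2 and Ifitm3 were also nearest to each other (0.411), but 7664 genes lay nearer to Ifitm2 and 754 nearer to Ifitm3, so that likeness does not set them apart. Of the 10, Ifitm3 was the nearest to Slfn2 (0.593), with 677 genes nearer still.

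Markers of other cell types were read beside these results. Among T cell markers 2 of 5 were tested. Lck, a lymphoid kinase gene, changed by 2.95, 0.46 and 3.35 in recovered, tolerant and acute against untreated cells (adjusted p = 3.14e-07, 0.0968 and 1.26e-07). It was lower in tolerant than in acute cells (-2.89, adjusted p = 1.16e-05) and higher in recovered than in tolerant cells (2.49, 3.16e-05), as 5 of the 6 Schlafen genes were, but unlike them it was not called in tolerant against untreated cells. Cd3e, which defines T cells, was not called in any comparison and changed by 0.23, -0.15 and 0.14, and Cd3d, Cd3g and Cd2 did not pass the filter on dim probes. The summed signal of the tested T cell markers was 2321 to 2863 in recovered, 1192 to 1663 in tolerant, 2551 to 2949 in acute and 1281 to 2018 in untreated cells.

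Of dendritic cell markers 3 of 5 were tested, and they did not move together. Zbtb46 changed by 5.34, 4.15 and 5.31 in recovered, tolerant and acute against untreated cells (adjusted p = 2.76e-07, 5.14e-06 and 3.05e-07) and by -1.16 in tolerant against acute cells (0.0223). Ccr7, the receptor by which such cells reach lymph nodes, was not well above background in untreated cells and was at least 2.85-fold higher in tolerant cells (adjusted p = 0.018), and it differed by 1.35 in tolerant against acute cells (0.125). Like Ifitm10, Ccr7 passed the filter on dim probes through the tolerant group only, which favours a higher value there. Its adjusted p-values do not allow for this selection. Siglech was not called in any comparison and changed by 0.09, 0.0 and 0.09 against untreated cells, and Flt3 and Xcr1 did not pass the filter. Their summed signal was 93044 to 102473 in recovered, 87900 to 97368 in tolerant, 83906 to 123143 in acute and 68519 to 115773 in untreated cells.

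Of neutrophil markers 3 of 7 were tested. S100a8 and Camp were called higher in tolerant than in acute cells (1.82 and 1.39, adjusted p = 0.00293 and 0.00351), where the Ifitm1 mean was also the highest, while Elane differed by -0.30 (0.342) and was not called in any comparison. The summed neutrophil signal was 6671 to 7241 in recovered, 4494 to 7586 in tolerant, 4673 to 6350 in acute and 4283 to 6529 in untreated cells.

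Recovered cells differed from tolerant and untreated cells in 2 further markers. Pf4, a platelet chemokine gene, was higher in recovered than in tolerant (1.24, adjusted p = 0.0433), acute (2.0, 0.0333) and untreated cells (2.39, 0.000543), while the globin gene Hba-a1 was not called in any comparison. The summed signal of these, 2 of 5 erythroid and platelet markers, was 35540 to 51139 in recovered, 11610 to 25237 in tolerant, 8203 to 16554 in acute and 6117 to 13436 in untreated cells. Cd79b, the 1 of 5 B cell markers tested, was lower in recovered than in tolerant (-2.41, adjusted p = 0.0239) and untreated cells (-3.86, 0.000734). Against acute cells it differed by -2.78 and was not called (adjusted p = 0.0552). Its signal was 46 to 173 in recovered, 242 to 995 in tolerant, 398 to 1176 in acute and 866 to 2673 in untreated cells. The fibroblast markers tested, Col1a2 and Dcn, were not called in any comparison, and their summed signal was 108 to 190 in recovered, 106 to 150 in tolerant, 77 to 277 in acute and 61 to 113 in untreated cells. No marker of NK cells (4) or of mast cells and basophils (4) passed the filter. The part of such cells in the results was not tested.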

How the data were processed

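RNA of 12 macrophage cultures, 3 for each of 4 groups, was hybridised to single-colour Agilent arrays. Per the file headers, Agilent Feature Extraction 10.7.3.1 made the spot intensity values, background subtracted within each array, with probes placed on mm9. The authors' deposited matrix holds log2 values of the same arrays, not centred (median 5.34 in every column), whose scaling is not stated in the sources used here beyond the name limma in the submitters' processing notes. Each of its columns matched its own array best (12 of 12), and it served as an alternative.

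From the intensity, log2 was taken, each array's 75th percentile (8.02 to 9.38) subtracted and the mean percentile restored. The 59305 spots other than controls, of 62976, represented 55681 probes. Outlier spots (135 to 233 an array) were left out, and 0 were saturated. A probe was kept where the 3 arrays of some group all had it well above background (28056 probes), and the brightest stood for its gene. Gene names followed RefSeq. All 12 arrays were fitted with limma 3.58.1 in R 4.3.3 across 20469 genes (8 residual degrees of freedom), with two-sided moderated tests of 6 comparisons and Benjamini-Hochberg adjustment over all genes. The fit was tested on simulated data. Other software was Python 3.11.15 with numpy 2.4.6, matplotlib 3.10.9 and pandas 2.3.3. Precision is limited by there being 3 arrays a group.

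The 10 genes and the lists were chosen with earlier results of these data known. Besides the 10, the text names other genes of both families, up to 4 called genes of a list and comparison, neighbours within 200000 bases, the 3 genes nearest in pattern, and markers. The labels call the replicates independent experiments, and whether they used separate animals is not stated, so p-values measure the spread between arrays. Slide 1 held replicate 1 except that of recovered cells. Slide 2 held that array and every replicate 2. Slide 3, scanned on another day, held every replicate 3. After group means were removed, all 18 pairs of arrays with the same number correlated, at r from 0.275 to 0.773, above the level set for treating the numbers as pairs. The 36 pairs with different numbers had r from -0.653 to 0.337, so the ranges overlapped. The main fit nonetheless had no block, and its standard errors and intervals hold the shift shared by a replicate number. Alternatives were the replicate block, slide block, normexp background, quantile normalization, the authors' values, no dim-probe filter, the mean of all probes, an intensity trend, leaving out each array or the second scan day, and, chosen after seeing the data, the other Slfn8 probe.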

Additional observations from a re-analysis of the deposited data

How the results depend on the processing

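The number of the 10 genes called stayed within 1.5 times its value under every alternative except these. In recovered against tolerant cells it was 8 with the replicate block and 8 with the slide block, against 5 without a block. Calls over all 20469 genes rose as well, from 4230 without a block to 9250 and 8281. In recovered against acute cells the number was 1 with the replicate block, against 0, while calls over all genes went from 420 to 2210. Leaving out 1 array gave 7 to 8 genes in acute, 6 to 8 in tolerant and 8 in each case in recovered against untreated cells, 4 to 7 in tolerant against acute, 4 to 7 in recovered against tolerant, and 0 in each case in recovered against acute cells. Those fits called 5021 to 6002 of all genes in acute, 2918 to 4311 in tolerant and 5865 to 7560 in recovered against untreated cells. They called 3124 to 4824 in tolerant against acute and 2576 to 4510 in recovered against tolerant cells. In recovered against acute cells they called 25 to 467 of all genes, so 0 of 10 carries little weight there. Of the single-gene values under all alternatives, 42 gained a call, 24 lost one and 19 changed sign. Each of those 19 was uncalled. Under other settings these were Ifitm2 in acute against untreated cells (-0.01 with quantile normalization, -0.11 on the authors' values), Ifitm3 in recovered against tolerant cells (-0.02 on the authors' values), Ifitm6 in recovered against untreated cells (0.22 with the slide block) and Slfn8 in recovered against acute cells (-0.01 with normexp, -0.01 on the other probe). With an array left out they were Ifitm6 in acute (-0.13 to 0.57) and recovered (-0.39 to 0.28) against untreated cells, Ifitm2 in tolerant against acute cells (-0.04 to 0.08), and in recovered against acute cells Slfn2 (-0.15 to 0.02), Slfn5 (-0.11 to 0.47), Slfn8 (-0.11 to 0.21) and Ifitm6 (-0.60 to 0.01). The cause of these changes was not tested. With 3 arrays a group and no block, differences inside the stated intervals cannot be seen, and a dim probe such as that of Slfn1 in untreated cells has little precision.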
